A study of Homo sapiens with 5 samples.

Results

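The MAGE family was followed in RNA sequencing of 5 libraries from HEK293T, a human embryonic kidney cell line. Members were all genes whose symbol starts with MAGEA to MAGEH or MAGEL and goes on with a digit. They came to 27 of the 19716 genes with a read in at least 1 library, 19 of them in the MAGEA, MAGEB and MAGEC subfamilies, 7 in MAGED, MAGEE, MAGEF and MAGEH, and the last being MAGEL2. For 4 groups, 5 sgRNAs aimed at the uPA promoter were transfected with a fusion, in which a Cas9 without nuclease activity and a blue fluorescent protein are joined to EGFP (dCas9-BFP-EGFP) or to the catalytic domain of a DNA methyltransferase. The latter were dCas9-BFP-DNMT1, with the maintenance enzyme, and the de novo enzymes in dCas9-BFP-DNMT3A and in dCas9-BFP-DNMT3B. The control group had received the plasmid pUC19, with neither dCas9 nor sgRNA. RNA was taken 48 h after transfection. The labels state BFP-positive sorting for every group, and how a pUC19 sample could have been sorted in that way is not given. Each group had 1 library, so the p-values below compare libraries and not conditions.

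MAGE proteins share the MAGE homology domain, through which many of them bind a RING-type ubiquitin ligase and direct it to its substrates. The MAGEA, MAGEB and MAGEC genes are cancer-testis genes. They are transcribed in germ cells, are kept silent in most somatic tissue with methylated promoters, and are switched on in many tumours and on treatment with inhibitors of DNA methylation. MAGED, MAGEE, MAGEF and MAGEH genes are transcribed in many somatic tissues. MAGEL2 lies in the imprinted Prader-Willi region. DNA methylation was not analysed here, so the levels below are those of RNA only.

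Promoters of germline and of broadly transcribed genes are shown first. The lines give 150 bases, from 120 before to 30 after an annotated start, on the coding strand of GRCh38.p14 as held by RefSeq. Capitals mark CCGGATGT or CCGGAAGT on either strand, and CCGGAAGT is a consensus for transcription factors of the Ets family. Both begin with CCGGA, so the motifs do not separate windows with and without sites for such factors. The members shown had many reads for their class or are named in the comparisons, with MAGEA3 as a promoter of the germline class without either motif. MAGEA10, with the most reads of that class, had no window in the table. MAGED1 and MAGED2 have 2 annotated starts each, and the start whose window held a motif is shown.
MAGED1, chrX:51802956-51803105, plus strand: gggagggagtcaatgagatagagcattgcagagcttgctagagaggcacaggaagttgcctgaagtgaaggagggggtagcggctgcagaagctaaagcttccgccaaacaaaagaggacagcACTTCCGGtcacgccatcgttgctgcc
MAGED2, chrX:54808226-54808375, plus strand: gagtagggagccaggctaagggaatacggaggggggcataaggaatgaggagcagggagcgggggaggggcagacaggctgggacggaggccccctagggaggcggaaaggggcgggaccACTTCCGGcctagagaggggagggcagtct
MAGEF1, chr3:184712035-184712184, minus strand: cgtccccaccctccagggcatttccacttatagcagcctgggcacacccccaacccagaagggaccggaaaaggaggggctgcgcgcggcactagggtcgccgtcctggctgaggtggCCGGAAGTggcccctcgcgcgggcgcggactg
MAGEE1, chrX:76427590-76427739, plus strand: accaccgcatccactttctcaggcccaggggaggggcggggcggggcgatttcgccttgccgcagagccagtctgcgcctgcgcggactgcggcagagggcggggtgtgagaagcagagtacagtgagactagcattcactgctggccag
MAGEB2, chrX:30215443-30215592, plus strand: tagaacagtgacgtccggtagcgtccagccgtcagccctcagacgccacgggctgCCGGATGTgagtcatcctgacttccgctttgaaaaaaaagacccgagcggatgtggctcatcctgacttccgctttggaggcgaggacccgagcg
MAGEB10, chrX:27807870-27808019, plus strand: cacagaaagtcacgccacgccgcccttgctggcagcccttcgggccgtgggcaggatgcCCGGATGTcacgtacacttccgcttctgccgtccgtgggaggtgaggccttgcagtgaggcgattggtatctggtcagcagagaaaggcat
MAGEA11, chrX:149711940-149712089, plus strand: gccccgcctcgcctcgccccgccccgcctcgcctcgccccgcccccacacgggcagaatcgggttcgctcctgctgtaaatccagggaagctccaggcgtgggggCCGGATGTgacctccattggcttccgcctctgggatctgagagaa
MAGEA3, chrX:152698674-152698823, plus strand: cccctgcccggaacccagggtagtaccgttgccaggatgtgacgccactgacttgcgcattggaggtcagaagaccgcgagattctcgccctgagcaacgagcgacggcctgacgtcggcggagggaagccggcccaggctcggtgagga

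Over the whole family, 31 protein-coding members had 42 windows of 300 bases in the table, from 250 before to 50 after a start. No window was in it for MAGEA1, MAGEA10, MAGEB17 and MAGEH1. The motif CCGGATGT, searched on both strands, was present in 18 of 31 windows of MAGEA, MAGEB and MAGEC genes (12 of 23 genes), against 0.701% of all 35116 windows. None of the 10 windows of MAGED, MAGEE and MAGEF genes held it. In MAGEA11 it began 15 bases before the start, in MAGEB10 61 bases and in MAGEB2 65 bases before it. The motif CCGGAAGT was present in 3 of the 10 windows of the broadly transcribed class, 1 each of MAGED1, MAGED2 and MAGEF1, and in 2 of the 31 windows of the germline class, those of MAGEB6 and MAGEB16, against 4.138% of all windows. The other windows of MAGED1, with 20 CpG sites, and MAGED2, with 10, did not hold it. In MAGEF1 it began 2 bases before the start. Both motifs were picked after the sequences had been seen, several windows come from near-identical genes, and a match is a description of letters, not of a bound factor.

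The windows of the germline class held a median of 12 CpG sites (1 to 21) and those of the broad class 16 (10 to 26), against 14 over all windows. The ratio of observed to expected CpG was 0.479 and 0.658 at the median, against 0.579 over all windows. MAGEB2, with 21 CpG sites and a ratio of 0.79, was nearer the median of the broad class, and MAGEE1, with 12 sites and 0.55, nearer that of the germline class. The 150 bases shown for MAGEA3 were the same in MAGEA6 at all 150 positions.

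Library totals ran from 26200000 reads in the dCas9-BFP-EGFP library to 36100000 in pUC19 (rounded to 100000), so 3 reads, taken as the least a library can show, stood for 0.083 to 0.114 reads per 1000000. The epithelial and embryonic kidney line markers KRT8, KRT18, VIM, NEFM and LIN28B all had reads in every library, with a summed level of 704 to 882 TPM (reads per base of transcript, scaled to the same sum in each library). Of 11 markers of other cell types 8 had a read, with a summed level of 8.27 to 12.9 TPM, and CD3E, CDH5 and COL1A2 had none. NEFM, a neurofilament protein, stood at 193 TPM in pUC19 and at 34.3 to 60.2 TPM in the fusion libraries (edgeR log2 difference -1.88, adjusted p = 0.0255), moving with the lower MAGEF1 and MAGEE1 values given below. Its part in them was not tested. In bulk RNA, fewer cells that transcribe a gene and less RNA per cell cannot be told apart.

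Nearly all MAGE transcripts came from the broadly transcribed class. MAGEA, MAGEB and MAGEC genes together made up 1.07% of the summed TPM of the family in the DNMT1 fusion library, 1.12% in pUC19, 1.43% with DNMT3B, 1.58% with DNMT3A and 1.68% with EGFP. MAGED1 alone held between 65.3% and 69.2% of it, and MAGED2 between 20.8% and 27.3%. Of the 27 members, 17 had a read in the DNMT1 fusion library, 24 with DNMT3A, 17 with DNMT3B, 20 with EGFP and 21 in pUC19, and 14 had a read in all 5. RefSeq lists 35 protein-coding members, and 8 of them, among them MAGEA9, MAGEB16 and MAGED4, had no read in any library. A total of 13 members had at least 10 reads in a library and are named below with their values.

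**Figure D1:**
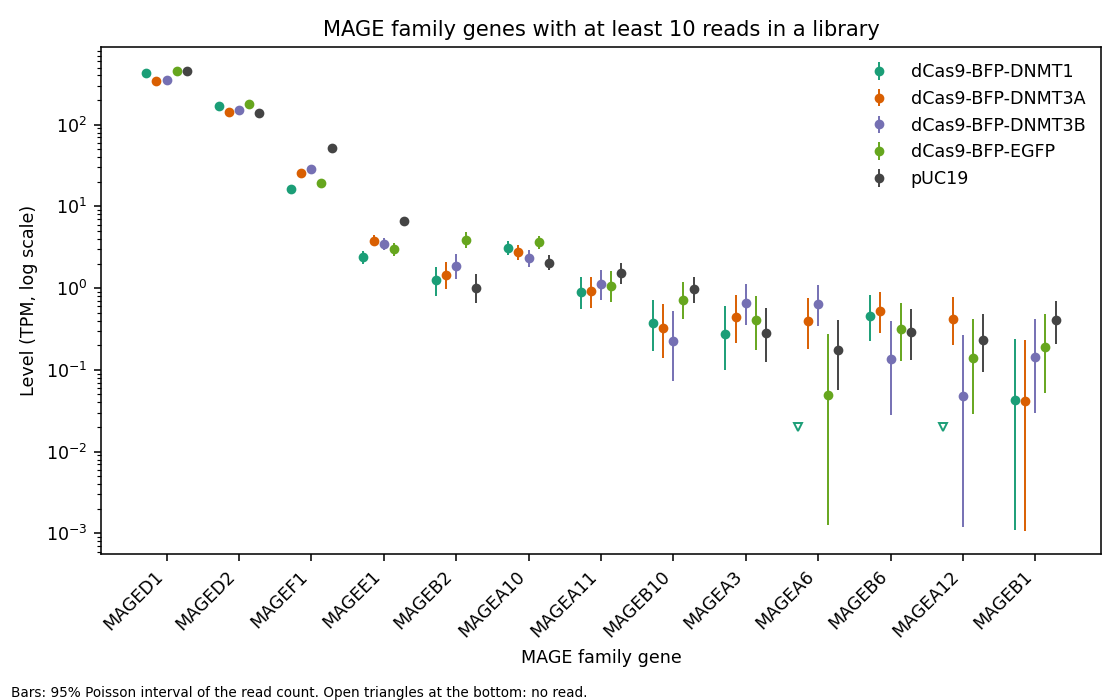
Level in TPM (log scale) of the 13 MAGE family genes with at least 10 reads in a library, 1 point per library, with the 95% exact Poisson interval of the read count as a bar and open triangles for libraries without a read. MAGED1 and MAGED2 lie above 100 TPM in all 5 libraries, and no MAGEA or MAGEB gene exceeds 3.92 TPM.

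MAGED1, also known as NRAGE, an adaptor that binds the p75 neurotrophin receptor, was the member of highest level. Its gene spans chrX:51546103-51645450 (GRCh37, plus strand) with up to 14 exons in a transcript. It had 424 TPM in the DNMT1 fusion library, 346 with DNMT3A, 355 with DNMT3B, 453 with EGFP and 455 in pUC19. The DNMT3A and DNMT3B fusions gave the 2 lowest levels, with 95% intervals of 340 to 352 and 349 to 362 TPM that did not overlap those of the other 3 libraries. Against the EGFP fusion the log2 difference was -0.39 for DNMT3A and -0.35 for DNMT3B, well under 2-fold. For the DNMT1 and EGFP fusions against pUC19 it was -0.10 and -0.01, and turned to 0.01 and 0.02 with TMM scaling.

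MAGED2, which is needed for salt uptake in the fetal kidney and is mutated in antenatal Bartter syndrome, followed with up to 15 exons at chrX:54834032-54842448. Its levels were 169, 141, 149, 178 and 137 TPM for DNMT1, DNMT3A, DNMT3B, EGFP and pUC19. pUC19 was lowest here, unlike for MAGED1, and the EGFP fusion highest. The largest log2 difference from pUC19 was 0.38, for the EGFP fusion, again under 2-fold, and DNMT1 against EGFP was -0.08, or 0.01 with TMM scaling.

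MAGEF1, which forms a ligase with NSMCE1 that acts on the iron-sulfur protein assembly factor MMS19, is a gene of 1 exon on another chromosome than most members (chr3:184428152-184429852, minus strand). Its levels were 16.1 TPM with DNMT1 (95% interval 14.4 to 17.9), 25.9 with DNMT3A (23.8 to 28.1), 28.9 with DNMT3B (26.6 to 31.4), 19.5 with EGFP (17.6 to 21.6) and 51.8 in pUC19 (49.1 to 54.5). All 4 fusion libraries lay under pUC19, those of DNMT1 and EGFP furthest. MAGEE1, a partner of the dystrobrevins, is likewise a gene of 1 exon (chrX:75648103-75651735, plus strand). It stood at 2.39 TPM with DNMT1 (1.97 to 2.88), 3.83 with DNMT3A (3.29 to 4.43), 3.44 with DNMT3B (2.9 to 4.05), 3.0 with EGFP (2.50 to 3.58) and 6.62 in pUC19 (5.98 to 7.31). The order of the libraries was close to that for MAGEF1, with pUC19 highest and DNMT1 lowest in both. For MAGEE1 the intervals of DNMT3A, DNMT3B and EGFP overlapped.

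The remaining members of this class were near the limit of detection. MAGEH1 had 2 reads with DNMT1, 8 with DNMT3A and none in the other 3 libraries. MAGEE2 had 1 read, with DNMT1, and MAGED4B 1 read, in pUC19. The level of MAGED4B cannot be read from these counts, since 96.3% of the 50-base stretches of its transcripts also occur in MAGED4 and only uniquely mapped reads were counted. MAGEL2, which works with TRIM27 and USP7 on the WASH complex at endosomes, had 7 reads with DNMT3B, 3 in pUC19 and 1 in each other library.

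In the germline class MAGEA10, a tumour antigen, had the most reads: 106 with DNMT1, 97 with DNMT3A, 72 with DNMT3B, 114 with EGFP and 90 in pUC19, or 3.10, 2.76, 2.32, 3.66 and 2.05 TPM. These reads lay on a small part of the transcript. They covered 36.0%, 12.7%, 10.7%, 20.7% and 24.1% of it in the same order, where genes with a like number of reads per base (within 1.2 times) had a median coverage of 64.9% to 72.9%. Between 1.06% and 10.9% of such genes were covered less. MAGEB10 was also under the median, with 12.0% covered against 30.4% in the EGFP fusion library and 20.7% against 46.5% in pUC19, but on 16 and 30 reads, and 15.1% and 17.9% of such genes were covered less. The authors gave no definition of coverage, which is taken here as the percentage of bases with any read.

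**Figure D2:**
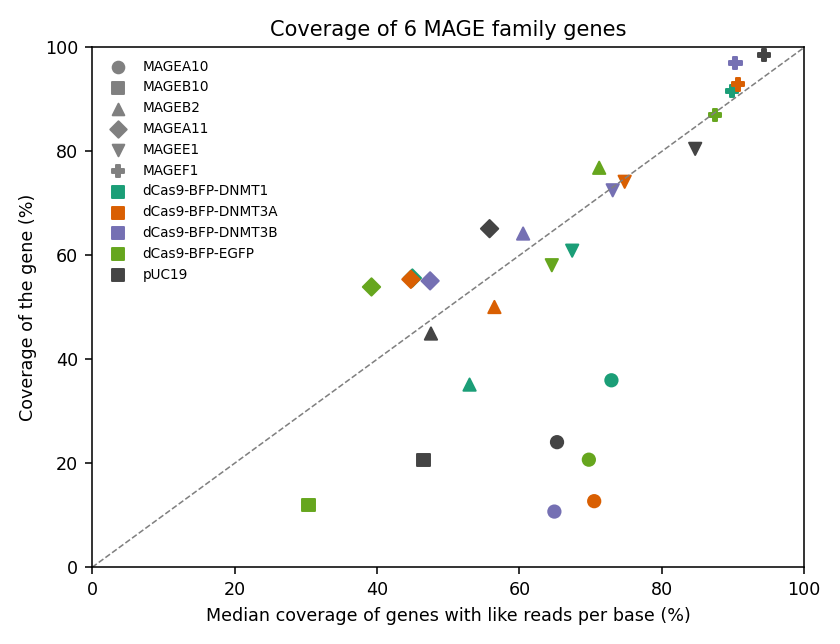
Coverage of 6 MAGE family genes (y axis, percent of the transcript with a read) against the median coverage of genes with a like number of reads per base in the same library (x axis, percent), for libraries with at least 10 reads on the gene. Shapes are genes, colours libraries, and the dashed line is equality. MAGEA10 and MAGEB10 lie under the line in every library plotted, while MAGEF1 and MAGEE1 lie near it.

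MAGEB2, a cancer-testis gene at chrX:30233680-30238206, had 25 reads with DNMT1, 30 with DNMT3A, 34 with DNMT3B, 72 with EGFP and 26 in pUC19. The corresponding levels were 1.24 TPM (0.803 to 1.83), 1.45 (0.976 to 2.06), 1.85 (1.28 to 2.59), 3.92 (3.06 to 4.93) and 1.00 (0.654 to 1.47). The EGFP fusion library stood apart, with an interval above those of the other 4, which overlapped one another. Its reads covered 76.8% of the transcript, more than the median of 71.2% for genes with like reads per base. MAGEA11, a coregulator of the androgen receptor, had 46 reads in pUC19, or 1.52 TPM, and 21, 22, 24 and 23 reads with DNMT1, DNMT3A, DNMT3B and EGFP, or 0.896, 0.912, 1.13 and 1.08 TPM, with overlapping intervals in all 5.

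MAGEA3 and MAGEA6, which join TRIM28 in a ligase for the energy sensor AMPK, are so alike that 51.9% and 61.6% of their 50-base stretches occur in other members, and their counts rest on the rest. MAGEA3 had 6 reads with DNMT1, 10 with DNMT3A, 13 with DNMT3B and 8 each with EGFP and in pUC19. MAGEA6 had 0, 9, 13, 1 and 5 reads in that order. Both had their highest count with DNMT3B. For MAGEA6 the adjusted p of the exact test was 0.00472 against EGFP and 0.0279 against pUC19, neither under the limit of 0.001.

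Counts of the other germline members did not exceed 30 reads. MAGEB10 had 9, 8, 5, 16 and 30 reads for DNMT1, DNMT3A, DNMT3B, EGFP and pUC19. MAGEB6 had 11, 13, 3, 7 and 9, MAGEA12 had 0, 10, 1, 3 and 7, and MAGEB1 had 1, 1, 3, 4 and 12. The highest count was in pUC19 for MAGEB10 and MAGEB1 and with DNMT3A for MAGEB6 and MAGEA12, so no library was highest throughout. MAGEC1 reached 8 reads with EGFP and MAGEC2, which activates the ligase TRIM28, 6 with DNMT3B. Of MAGEA1, MAGEA2, MAGEA4, MAGEA8, MAGEA9B, MAGEB17, MAGEB18 and MAGEC3 none had more than 6 reads in a library. The counts of MAGEA2 and MAGEA9B are uncertain because 95.9% and 99.9% of their 50-base stretches occur in other members.

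Summed over the class, the germline genes had 185 reads with DNMT1, 226 with DNMT3A, 186 with DNMT3B, 267 with EGFP and 249 in pUC19. MAGEA10, whose reads lay on a small part of its transcript, gave 106, 97, 72, 114 and 90 of them. The sum without MAGEA10 was not taken. Per 1000000 reads the full sums were 6.67 (5.75 to 7.71), 7.68 (6.71 to 8.75), 6.85 (5.90 to 7.91), 10.2 (8.99 to 11.5) and 6.89 (6.06 to 7.80). The EGFP fusion library was highest and its interval lay above the other 4. Without MAGEB2 its value was 7.43 and those of the others were 5.77, 6.66, 5.60 and 6.17. The broad class had 735, 597, 592, 756 and 769 reads per 1000000, lowest in the DNMT3A and DNMT3B fusion libraries.

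**Figure D3:**
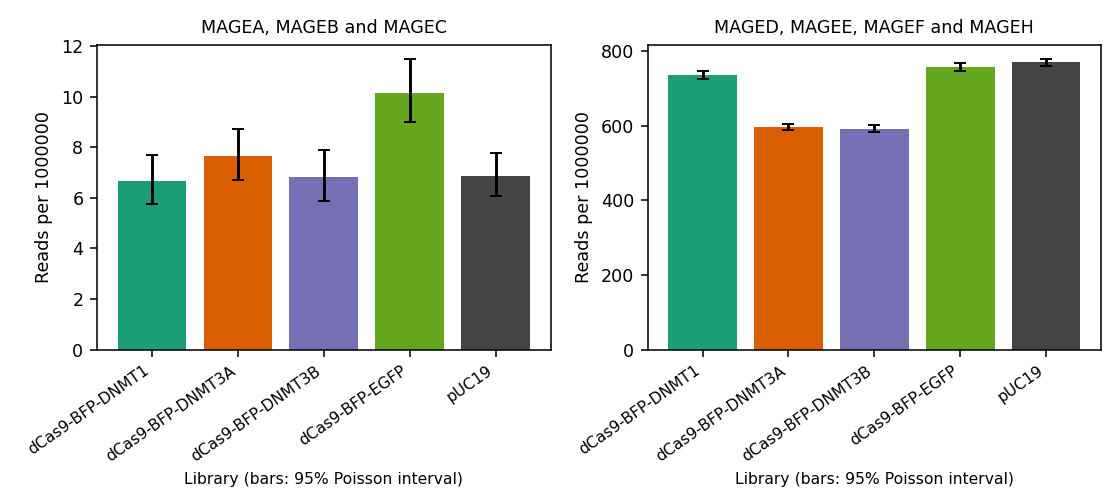
Reads per 1000000 (y axis, from 0) summed over MAGEA, MAGEB and MAGEC genes (left) and over MAGED, MAGEE, MAGEF and MAGEH genes (right) in the 5 libraries, with 95% exact Poisson intervals as error bars. On the left the dCas9-BFP-EGFP library is highest at 10.2, and on the right the dCas9-BFP-DNMT3A and dCas9-BFP-DNMT3B libraries are lowest at 597 and 592.

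Each fusion was then compared with pUC19. A call required an adjusted p of at most 0.001 in an exact conditional binomial test (two-sided, with Benjamini-Hochberg adjustment over all genes tested) and a difference of at least 2-fold in TPM + 0.1. In the DNMT1 fusion library 2 of 24 members tested were called, both lower, where 5.29% of all 19022 genes were called. These were MAGEF1, 3.20-fold lower (log2 difference -1.68, exact-test adjusted p = 3.08e-97), and MAGEE1, 2.70-fold lower (log2 difference -1.43, exact-test adjusted p = 5.91e-23). In the EGFP fusion library 3 of 23 members were called, against 5.77% of all genes. MAGEF1 was 2.65-fold lower (exact-test adjusted p = 1.21e-76) and MAGEE1 2.16-fold lower (2.15e-16), while MAGEB2 was 3.65-fold higher (1.64e-09). These counts of 2 and 3 members are too small to set the family apart from that background, and with an assumed coefficient of variation of 0.2 none of the 5 calls was left.

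With DNMT3A no member of 26 was called, where 9.45% of all genes were. MAGEF1 missed the call at 1.99-fold lower (exact-test adjusted p = 7.69e-49), just under the limit of 2-fold, and MAGEE1 was 1.71-fold lower. With DNMT3B 1 of 22 members was called, against 8.89% of all genes. It was MAGEB10, 3.25-fold lower on 5 against 30 reads (exact-test adjusted p = 0.000993, at the very limit of 0.001), and the call was lost with TMM scaling (adjusted p = 0.00184). In this library MAGEF1 was 1.79-fold lower and MAGEE1 1.90-fold lower. The lower value of MAGEF1 and MAGEE1 was therefore seen in all 4 fusion libraries and passed the fold limit in those of DNMT1 and EGFP, all against the same pUC19 library. That library also differed in plasmid, dCas9, guides and possibly sorting, which cannot be told apart.

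**Figure D4:**
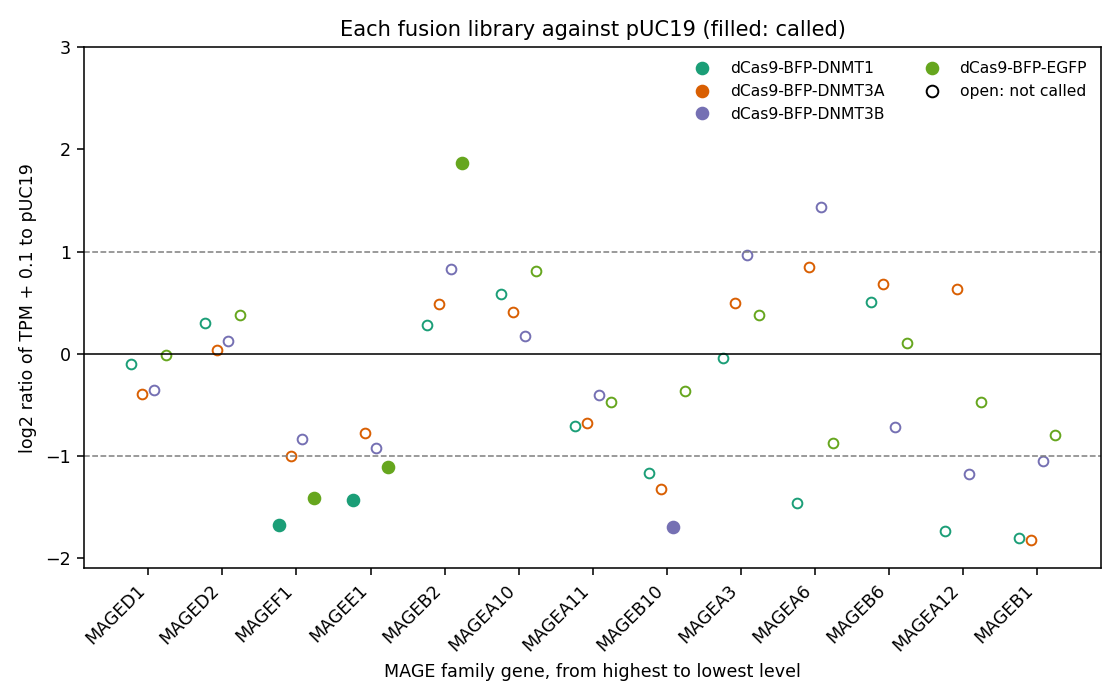
Log2 ratio of TPM + 0.1 in each fusion library to that in pUC19 (y axis) for the 13 MAGE family genes with at least 10 reads in a library (x axis), with called genes filled and the dashed lines at 2-fold. MAGEF1 and MAGEE1 lie under 0 for all 4 fusions and are filled for DNMT1 and EGFP. Ratios of genes without a read in a library depend on the 0.1 TPM added.

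MAGEF1 and MAGEE1 share the structure of 1 exon with MAGEE2, MAGEH1 and MAGEL2. The latter did not exceed 8 reads in a library and were called in no comparison. Over all genes, those of 1 exon were called lower against pUC19 more often than the others with every fusion. Among genes with at least 100 reads in either library, 20% of 145 genes of 1 exon were called lower in the DNMT1 fusion library than in pUC19, against 3.41% of 11020 genes with more exons. With EGFP the shares were 16.6% and 3.21%, with DNMT3A 14.4% and 4.72%, and with DNMT3B 14.5% and 3.88%. The median log2 difference of the genes of 1 exon was -0.47 with DNMT1 and -0.28 with EGFP, against -0.14 and -0.01 in the others. It was -0.13 with DNMT3A and -0.05 with DNMT3B, against -0.01 and 0.00 in the others. Against the EGFP fusion 3 genes of 1 exon were called lower in each comparison, or 2.26% to 2.34%. Of the others it was 0.884% to 1.38%. Genes of 1 exon were also called higher. Against pUC19 these were 6 of 145 with DNMT1, 8 of 146 with DNMT3A, 8 of 145 with DNMT3B and 4 of 145 with EGFP. Of the others 115 of 11020, 599 of 11075, 644 of 11050 and 296 of 11011 were. Against EGFP it was 4 of 128 with DNMT1, 6 of 133 with DNMT3A and 7 of 128 with DNMT3B. Of the others 24 of 10713, 250 of 10813 and 279 of 10741 were called higher there. Calls of genes of 1 exon were thus not confined to lower values or to comparisons with pUC19. The part of exon number in the MAGEF1 and MAGEE1 values was not tested.

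The median over all genes tested against pUC19 on the log2 scale was -0.15 with DNMT1 and between -0.06 and 0.00 with the other fusions. The 16 germline members tested with DNMT1 had a median of -0.43, the 19 with DNMT3A 0.49, the 16 with DNMT3B -0.41 and the 17 with EGFP 0.10. The sign changed from library to library, and many of these values rest on fewer than 10 reads. For the 5 to 7 broad members the medians were -0.10, -0.35, -0.36 and -0.30. The median with EGFP is the value of MAGED4B, which had 1 read in pUC19 and none with EGFP. That with DNMT3A also rests in part on MAGED4B, so these medians do not describe the class.

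The methyltransferase fusions were also set against the EGFP fusion, which shares dCas9, BFP and guides with them. The same member was called in each comparison and no other: MAGEB2 was lower with DNMT1 (3-fold, exact-test adjusted p = 2.03e-06), with DNMT3A (2.60-fold, 7.34e-06) and with DNMT3B (2.06-fold, 0.000387). All 3 share the EGFP fusion library, the single library in which MAGEB2 was high. The calls were 1 of 22, 1 of 24 and 1 of 20 members tested, or 4.55%, 4.17% and 5.00%, against 1.48%, 4.09% and 3.62% of all genes. MAGEF1, by contrast, was 1.33-fold and 1.48-fold higher with DNMT3A and DNMT3B than with EGFP (exact-test adjusted p = 4.08e-05 and 2.88e-07), under the fold limit.

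The 2 fits with edgeR's quasi-likelihood test took the spread between the fusion libraries into account, although these are different constructs and not replicates. In the first, of the 4 fusions against pUC19, 11 members passed the filter on low counts and none had an adjusted p under 0.05, where 0.737% of 16001 genes did. At an unadjusted p under 0.05 there were 2, MAGEF1 with a log2 difference of -1.15 (edgeR adjusted p = 0.0914) and MAGEE1 with -1.02 (0.124). DESeq2, which called 6.51% of all genes, called both, with adjusted p = 0.0137 and 0.0383, and over 8 alternatives the adjusted p ran from 0.0137 to 0.114 for MAGEF1 and from 0.0383 to 0.176 for MAGEE1. MAGEB2 stood at 1.11 (edgeR adjusted p = 0.421), since it was high in 1 fusion library of 4.

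The second fit set DNMT3A and DNMT3B, the de novo enzymes, against DNMT1 and EGFP. Of 8 members that passed the filter none was called, where 11.0% of 15332 genes were. An unadjusted p under 0.05 was found for 3, and the share of all genes under that limit was not counted in either fit. These 3 were of the broad class and had far more reads than the germline members tested. MAGEF1 had a log2 difference of 0.57 (edgeR adjusted p = 0.0528), MAGED1 of -0.38 (0.0620) and MAGED2 of -0.31 (0.110). DESeq2 called MAGEF1 and MAGED1 (adjusted p = 0.0322 and 0.0388) and 14.3% of all genes. Over the alternatives that kept all fusions, the adjusted p ran from 0.0322 to 0.0687 for MAGEF1. It ran from 0.0158 to 0.084 for MAGED1 and from 0.0464 to 0.161 for MAGED2. Alternatives that left out a fusion had a lone library in a group, so their p-values are not given. The direction of these 3 did not change in any alternative, and MAGED1 and MAGEF1 moved in opposite directions.

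Among relatives outside the rule, NDNL2, the MAGE subunit of the SMC5/6 complex (also NSMCE3), stood at 35.6 to 46.1 TPM and TRO, or trophinin, at 13.3 to 19.8 TPM. Neither was called in any comparison, and NDN had no read in any library. All 21 partners of MAGE proteins on a list of ligases, substrates and binding proteins had a read, and 19 passed the filter of the second fit. Of these 3 were higher with DNMT3A and DNMT3B and none lower, where 11.0% of all genes were called and 6.90% were higher, and the list median was 0.20 against -0.01 over all genes. They were MSX2 and NGFR, a homeodomain protein and the p75 neurotrophin receptor that both bind MAGED1, and NSMCE4A, of the SMC5/6 complex. MSX2 had 57.0 TPM with DNMT1, 91.7 with DNMT3A, 89.7 with DNMT3B, 60.2 with EGFP and 45.5 in pUC19 (edgeR log2 difference 0.58, adjusted p = 0.0236). NGFR had 1.44, 4.22, 2.62, 1.32 and 1.72 TPM (1.25, adjusted p = 0.0338 with edgeR), and NSMCE4A 107, 175, 161, 125 and 151 TPM (0.49, adjusted p = 0.0399 with edgeR). In the first fit 20 partners were tested and none was called. In the pairwise tests against pUC19, MSX2 and NGFR were called higher with DNMT3A, where 4.44% of all genes were. LNX1, a ubiquitin ligase named here after its values had been seen, was called lower in all 4 fusion libraries, with 5 to 8 reads (0.126 to 0.221 TPM) against 49 in pUC19 (0.961 TPM), although its edgeR adjusted p was 0.0807. TRIM28 was among the most abundant, at 571 to 844 TPM.

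Most other cancer-testis genes were also low or without reads, with PRAME as the clearest exception. Of 86 on the list 44 had a read and 11 had at least 10 reads in a library. PRAME was the highest, at 55.3 TPM with DNMT1, 84.8 with DNMT3A, 85.2 with DNMT3B, 67.9 with EGFP and 49.4 in pUC19, and LDHC, a testis lactate dehydrogenase, followed at 6.33 to 10.1 TPM. In the second fit 1 of 8 tested was called, where 11.0% of all genes were. It was TKTL1, a transketolase relative, lower with DNMT3A and DNMT3B (0.118 and 0.167 TPM) than with DNMT1 and EGFP (0.670 and 0.634), with a log2 difference of -2.23 (edgeR adjusted p = 0.0316). In the first fit none of 10 was called. In the pairwise tests against pUC19, TKTL1 was called lower with DNMT3A and DNMT3B, on 4 and 5 reads against 50. TEX14 was called higher with both, on 165 and 150 reads against 85. SSX1 was called higher with DNMT3B (13 reads against 0) and SYCP3 with DNMT3A (12 against 0). In each of these comparisons 2 genes of the list were called higher and 1 lower. Of all genes, 9.45% were called with DNMT3A and 8.89% with DNMT3B. The counts are too small to set the list apart from that background. The list medians were -0.35 in the second fit and 0.43 in the first, against -0.01 and 0.03 over all genes.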

How the data were processed

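Poly(A) RNA of 5 HEK293T libraries, 1 per group as given by the sample titles, was fragmented and sequenced on an Ion Proton. The authors filtered the reads, aligned them with tmap to RefSeq transcripts of hg19 and counted reads that mapped uniquely, so genes with a near-identical copy are undercounted. The deposited files hold whole-number read counts per gene without normalization, TPM values made by the authors from counts and gene length, and a coverage in percent of each transcript that the authors did not define. Genes missing from a deposited file were set to 0 reads. Versions of tmap and RefSeq are not given in the sources used here.

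Pairs of libraries were compared over all genes with a read in either by an exact conditional binomial test, two-sided and given the library totals (scipy 1.17.1, Python 3.11.15), with Benjamini-Hochberg adjustment. A call needed an adjusted p of at most 0.001 and 2-fold on TPM + 0.1, the thresholds of the study, whose test is not named. This scale understates changes of low genes. The quasi-likelihood test of edgeR 4.0.16 (R 4.3.3; TMM, filterByExpr) served for the 2 fits, and DESeq2 1.42.0 as an alternative. Further alternatives were TMM scaling of the pairs, 1 TPM as pseudocount or as minimum level, 0.05 as limit of the adjusted p, an assumed coefficient of variation of 0.2, and, for the fits, no filter, a GC and length offset, and leaving out each fusion. Intervals are 95% exact Poisson intervals and cover counting error only. Scripts were tested on simulated data. Gene positions are from GENCODE v44 lifted to GRCh37, and promoter windows from RefSeq on GRCh38.p14. Every member with at least 10 reads in a library was named. From each other list the genes called by edgeR were named, and further genes were picked for their level or their pairwise calls. Members, lists and the division by exon number were chosen with earlier results of these data known.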

Additional observations from a re-analysis of the deposited data

Results flagged for a closer look

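MAGEB2 was singled out because its level differed between the EGFP fusion library and each of the other fusion libraries in the exact test, which compares libraries and not conditions. Against the EGFP fusion DNMT1 had a log2 difference of -1.58, DNMT3A one of -1.38 and DNMT3B one of -1.04. With an assumed coefficient of variation of 0.2 the adjusted p of edgeR's exact test was 0.464, 0.258 and 0.539. All 3 rest on the 72 reads of the EGFP fusion library, set against 25 to 34 reads in the other fusion libraries and 26 in pUC19, and there is no second EGFP library to compare it with. The groups of 1 library allow no search for samples that stand apart within a group.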

How the results depend on the processing

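With 1 library per group and few reads on most members, counting error and the single pUC19 library limit every call. Of pairwise counts of members called, the assumed coefficient of variation of 0.2 left 0 in the 6 comparisons that had any. An adjusted p of 0.05 gave 5 members for DNMT1 (main 2), 3 for DNMT3A (0) and 3 for DNMT3B (1) against pUC19, and 2, 3 and 3 (each 1) against EGFP. The share of all genes called at 0.05 was not counted, so these counts cannot be set against that background. The 1 call of DNMT3B against pUC19 fell to 0 with a pseudocount of 1 TPM, TMM scaling or a minimum of 1 TPM, and that against EGFP fell to 0 with the first and second of these. For single genes, the calls lost were MAGEB10 with DNMT3B and MAGEE1 with EGFP against pUC19, and MAGEB2 with DNMT3B against EGFP. TMM scaling reversed the sign of 4 log2 differences near 0: MAGEA3 (0.04) and MAGED1 (0.01) with DNMT1, MAGED1 (0.02) with EGFP, all against pUC19, and MAGED2 with DNMT1 against EGFP (0.01).

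In the fit of 4 fusions against pUC19, DESeq2 called 2 members (main 0), and leaving out each fusion gave 0 to 0. In the fit of DNMT3A and DNMT3B against DNMT1 and EGFP, DESeq2 called 2 members and 14.3% of all genes. A GC and length offset called 3 (MAGED1, MAGED2 and MAGEF1), where 2190 of 13882 genes were called. In this fit leaving out a fusion left 1 library in a group, so only log2 differences are given. MAGEB2 stood at -1.23 without the DNMT1 fusion, at -0.67 with all 4 fusions and at 0.28 without EGFP. With 1 fusion left out, MAGEF1 ran from 0.50 to 0.65 and MAGED1 from -0.40 to -0.36. The lone library left in a group was then assumed to vary like the others. As a share of raw reads, the germline class made up 0.899% (DNMT1), 1.27% (DNMT3A), 1.14% (DNMT3B), 1.33% (EGFP) and 0.887% (pUC19) of the family. Without members that have a near-identical copy it made up 1.36% with DNMT3A and 1.15% with DNMT3B. The causes were not tested. No paired analysis was possible because each group has 1 library.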
